A study of Persea americana and Macadamia integrifolia and Mangifera indica with 6 samples.

Results

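MicroRNAs of macadamia leaves at a juvenile and at a mature age are described here over all 123 entries of the deposited values, 50 named for Arabidopsis and 73 for rice. Macadamia gave 2 of the 6 libraries in the series, and the other 4 came from avocado and mango. The juvenile library was made from the youngest fully expanded leaves of 1 month old seedlings of Macadamia integrifolia, cultivar HAES741, kept in a glasshouse. The mature library came from leaves of the same kind on 10 year old trees of that cultivar, which flowered and stood in the field at a research station. No treatment or engineered allele was involved. Leaves of several plants were pooled and the text of the study does not say which pool was sequenced, so each age is 1 library without a replicate, and no p-value is given. Age, growing place and sampled position differ together in these libraries and cannot be told apart. Seedling leaves came from the primary unbranched shoot, and tree leaves from several positions on each tree. The seedlings were grown from nuts, and whether the trees share their genotype is not stated. Fewer cells that make a miRNA and less of it per cell cannot be told apart either. The values hold miRNA entries alone, so the leaf label was not checked against marker genes.

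Plant miRNAs are cut from hairpin transcripts by a Dicer enzyme, and a strand of the resulting duplex guides an Argonaute protein to messenger RNAs with a nearly complementary site. Loci whose mature products are alike form a family, and members of a family often share their targets. In Arabidopsis, miR156 and the closely related miR157 act on transcripts of SPL transcription factors, and a decline of miR156 with age lets these factors accumulate. miR172, which acts on transcripts of AP2-like factors, becomes more abundant as that plant ages. The names 5p and 3p mark the product of the left and the right arm of the hairpin.

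Sequences are shown for miR156 and miR172 of the age pathway, for the leading families miR159 and miR396, and for miR164 and miR394, which have roles in leaf and organ growth. For each a forward primer was designed, described in the methods as the mature miRNA. They are printed in 5′ to 3′ orientation as DNA, with the seed (bases 2 to 8 of the miRNA) in capitals. Whether the entries counted in the libraries have exactly these letters was not tested.
miR156: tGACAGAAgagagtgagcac
miR172: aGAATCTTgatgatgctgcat
miR159: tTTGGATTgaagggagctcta
miR164: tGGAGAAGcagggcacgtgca
miR394: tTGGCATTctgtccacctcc
miR396: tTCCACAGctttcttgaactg
The 6 seeds are all different, and the closest pair, those of miR159 and miR394, share 5 bases at the same positions. The primers are 20 to 21 nt long. The primer of miR172 begins with A and the other 5 begin with T.

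The values are RPM, read numbers scaled to a common total of the library's reads of 20 to 24 nt. In both libraries these values are whole multiples of what 1 read is worth, 0.139 RPM in the juvenile and 0.582 RPM in the mature library. The smallest depth that fits was 7216756 reads for the juvenile and 1717832 reads for the mature library, and whole multiples of these depths fit as well. The juvenile library was thus 4.20 times deeper, and a value of 0 allows up to 3 reads, or 0.416 and 1.75 RPM in juvenile and mature leaves. Intervals given below are exact 95% (Clopper-Pearson) intervals, unless stated otherwise, on reads at these depths. They cover counting error only, and reads of amplified libraries are not independent molecules, so the spread between plants is not in them.

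Entries of a family with the same values in all 6 libraries were taken as 1 sequence, which left 53 distinct sequences in 20 families. Of these, 32 came from 1 entry and 21 from several, up to 16 entries for the leading sequence of miR156. Macadamia showed reads for 50 of the 53, covering 113 entries. The 3 listed at 0 at both ages were osa-miR159d, osa-miR319a-3p.2-3p and osa-miR395b, the last of which stands for 8 rice entries. In juvenile leaves 50 sequences had reads and in mature leaves 45. The 5 found in juvenile leaves alone had at most 5 reads, a number too small to tell their absence at the lower depth of the mature library. None was found in mature leaves alone. At each age 32 sequences reached 10 RPM.

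The listed miRNAs held 544736 reads in juvenile leaves, which is 7.55% (7.53 to 7.57) of the 20 to 24 nt reads. In mature leaves they held 95204 reads, or 5.54% (5.51 to 5.58). The mature library thus had a smaller share of listed miRNAs. An RPM value is a share of all small RNAs of these lengths, so a family that kept its share among the miRNAs is lower in mature RPM.

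A family's level is the sum over its sequences on the more abundant arm and those that name no arm. Among 20 families, 19 reached 10 RPM in at least 1 macadamia library. The remaining family, miR319, which acts on TCP transcription factors of leaf growth, had 4 juvenile reads and 0 mature reads. It is listed by 2 rice entries alone, osa-miR319a-3p and osa-miR319a-3p.2-3p, and no Arabidopsis entry of it is present. miR319 and miR159 are close in sequence, and reads that fit both could have been counted under either.

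miR159, which acts on GAMYB-like MYB factors, led at both ages, at 41759 RPM when juvenile and 34716 RPM when mature. It made up 55.3% of the juvenile and 62.6% of the mature listed reads. miR396, which acts on growth-regulating factors (GRF), came next with 16114 and 12034 RPM. Its share of these reads was nearly level, at 21.3% and 21.7%. The place after these changed with age, from miR157 at 3331 RPM in juvenile leaves to miR172 at 2035 RPM in mature leaves. The 3 leading families together held 81.1% of the juvenile and 88.0% of the mature listed reads.

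**Figure D1:**
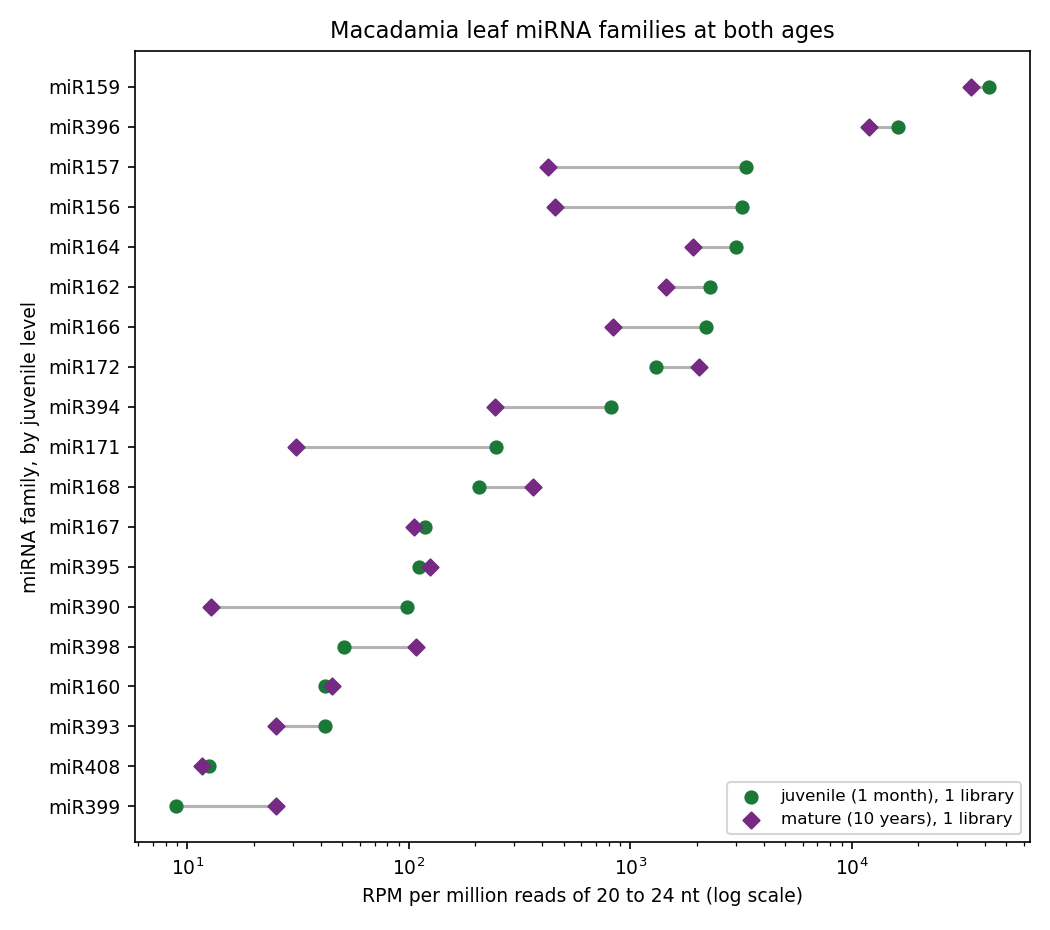
Level of 19 miRNA families in juvenile (circles) and mature (diamonds) macadamia leaves, 1 library each, in RPM of 20 to 24 nt reads on a log axis, ordered by the juvenile level. The longest lines join the symbols of miR157, miR156, miR171 and miR390, which lie far to the left in mature leaves, while miR172, miR168, miR398 and miR399 lie to the right.

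Order of abundance within a library does not depend on the library total. Of the 20 families, 4 had the same rank at both ages, 6 moved by 1 place and 10 by 2 places or more. miR172 moved from rank 8 in juvenile leaves to rank 3 in mature leaves. miR157 and miR156 went the other way, from ranks 3 and 4 to ranks 8 and 7. miR171 went from rank 10 to rank 15 and miR390 from rank 14 to rank 18. miR398 and miR399 each moved up by 3 places, from 15 to 12 and from 19 to 16.

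Ratios of mature over juvenile leaves were taken on a log2 scale after adding 1 RPM, so that changes of low families appear too small, and folds are given on plain RPM. Of the 19 families, 2 were at least 2-fold higher in mature leaves (10.5% of those compared) and 6 at least 2-fold lower (31.6%). Those higher were miR399 and miR398. Those lower were miR171, miR157, miR390, miR156, miR394 and miR166. The other 11 lay between. The median log2 ratio over all 19 was −0.42, and 13 were lower by any amount. Setting that median to 0 gave 4 families at least 2-fold higher, now with miR168 and miR172, and 5 lower, now without miR166. Scaling to the listed miRNA reads shifts a plain log2 ratio, with no value added, up by 0.45, and leaving miR159 out of that total shifts it by 0.70. Under all these scalings 7 families stayed lower (miR156, miR157, miR166, miR171, miR390, miR393 and miR394). Each scaling moves the ratios of all 19 families up, so the 6 that were higher in RPM had to stay higher. These were miR160, miR168, miR172, miR395, miR398 and miR399, of which miR160 and miR395 differed by no more than counting error. The other 6 families change sign with the scaling.

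**Figure D2:**
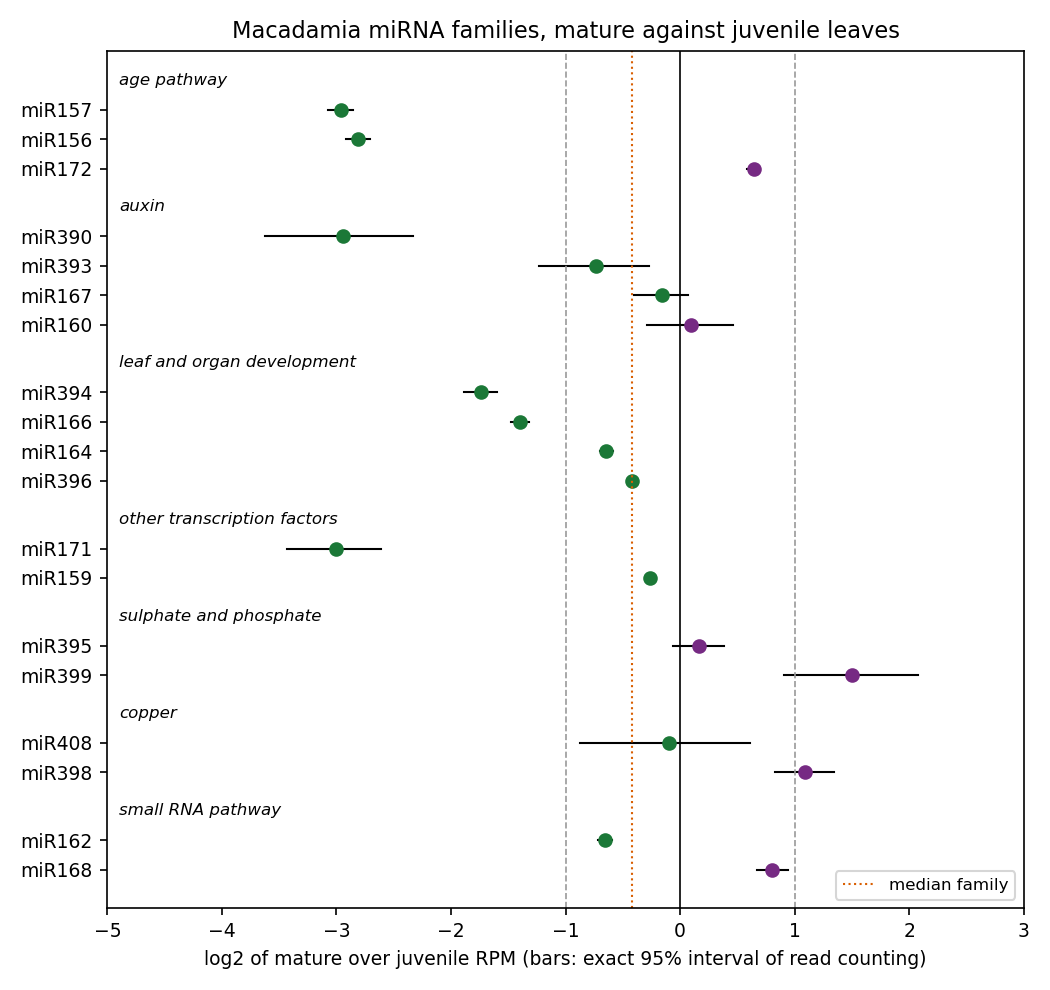
Plain log2 ratio of mature over juvenile RPM (horizontal axis, no value added) of 19 families grouped by role, green where lower and purple where higher in mature leaves, with exact 95% intervals of read counting; dashed lines mark 2-fold and the dotted line the median family. Intervals of miR167, miR395, miR160 and miR408 include no change and those of the other 15 do not.

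The age pathway was represented by all 3 of its families, with 2 at least 2-fold lower and 1 between. Over all families compared, 6 of 19 were at least 2-fold lower. The median log2 ratio of the group was −2.81, against −0.42 over all families. miR156 had 3210 RPM (23166 reads) in juvenile and 457 RPM (785 reads) in mature leaves. That is 7.02-fold lower in mature leaves (6.54 to 7.55). miR157 had 3331 RPM (24036 reads) and 427 RPM (734 reads), 7.79-fold lower (7.24 to 8.40). After setting the median family to 0, the log2 ratios were −2.39 for miR156 and −2.54 for miR157. The miR157 level was 1.04 times that of miR156 in juvenile and 0.935 times in mature leaves, so the pair moved nearly in step (a 1.11-fold shift, 1.00 to 1.23, by a normal approximation on the log scale). miR156 and miR157 are close in sequence, and whether reads of either were counted in the other was not tested.

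miR172 had 1304 RPM (9409 reads) in juvenile leaves and 2035 RPM (3495 reads) in mature leaves. It was 1.56-fold higher in mature leaves (1.5 to 1.62), below the 2-fold limit on the RPM scale and with a log2 ratio of 1.06 after the median family was set to 0. It was the only 1 of the 8 most abundant juvenile families to be higher in mature RPM. A ratio within a library does not depend on its total. The ratio of miR156 to miR172 was 2.46 in juvenile and 0.225 in mature leaves, 11.0-fold lower (10.1 to 11.9 by the same approximation). The ratio of miR157 to miR172 went from 2.55 to 0.210, 12.2-fold lower (11.2 to 13.2). In juvenile leaves each of the pair thus outnumbered miR172, and in mature leaves miR172 outnumbered each. Against miR159, the leading family, miR156 was 0.0769 in juvenile and 0.0132 in mature leaves, while miR172 was 0.0312 and 0.0586. By qRT-PCR, another measure on the same biological samples, the study reported a significant decline of miR156 in macadamia but no significant change of miR172. From its small RNA reads it reported more miR156 in juvenile leaves and a miR172 difference of less than 2-fold in macadamia.

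Summed over families, juvenile leaves had 74977 RPM and mature leaves 54985 RPM. Within the listed reads, a share that no scaling alters, miR156 and miR157 together made up 8.67% in juvenile and 1.60% in mature leaves.

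Of the families with roles in leaf and organ development, 4 of 5 were compared, with 2 at least 2-fold lower. Over all families compared, 6 of 19 were at least 2-fold lower. The median log2 ratio of the group was −1.02, against −0.42 over all families. miR394, which acts on the transcript of an F-box protein of the shoot tip and leaf in Arabidopsis, had 819 and 245 RPM in juvenile and mature leaves. It was 3.34-fold lower (3.03 to 3.70). miR166, which acts on class III HD-ZIP factors that set the upper leaf side, had 2202 and 835 RPM and was 2.64-fold lower (2.50 to 2.78). Its log2 ratio of −1.40 moved to −0.98 with the median family at 0, to −0.95 per listed miRNA read and to −0.69 when miR159 was left out of that total, so it stayed lower but no longer by 2-fold. miR164, which acts on NAC factors of organ boundaries, had 3010 and 1927 RPM. It was 1.56-fold lower in RPM (1.51 to 1.62), but 0.06 higher on the log2 scale when listed reads without miR159 were the total. The ratio of miR164 to miR166 within a library went from 1.37 to 2.31. miR396 was 1.34-fold lower in RPM (1.32 to 1.36), was itself the median family, and was higher by 0.02 and 0.28 on the log2 scale under the other 2 totals. From small RNA sequencing of the youngest and oldest trees, the study had picked miR164, miR394 and miR396 as differing with age in each species. By qRT-PCR, another measure, it then found no statistically significant difference with tree age for any of them.

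The auxin group had 4 of 4 families compared (miR160 on its 3p arm alone), with 1 at least 2-fold lower and 0 higher. Over all families compared, 6 of 19 were at least 2-fold lower. The median log2 ratio of the group was −0.44, near that of all families. miR390, which starts the making of small RNAs against auxin response factors, had 98.4 RPM (710 reads) in juvenile and 12.8 RPM (22 reads) in mature leaves, 7.68-fold lower (5.03 to 12.3). miR393, which acts on auxin receptors of the TIR1 family, had 41.7 and 25.0 RPM and was 1.67-fold lower (1.21 to 2.35). miR167, which acts on activating auxin response factors, had 118 and 105 RPM, a difference within counting error (1.12-fold, 0.952 to 1.32) whose sign changes under each other scaling. miR160, a family that acts on repressing auxin response factors, had 42.0 and 44.8 RPM of its 3p arm, also within counting error (1.07-fold, 0.820 to 1.38). Its 5p arm is listed by 1 rice entry alone, osa-miR160f-5p, and other 5p sequences of miR160 are not among the entries. That entry leads miR160 in the other species, but had only 3.33 and 3.49 RPM (24 and 6 reads), under the 10 RPM filter. Whether the 3p arm acts on these targets was not tested. The group thus holds a family with a large difference and 2 with none beyond counting error.

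Among other regulators of transcription factors, miR171, which acts on GRAS factors of the HAM type in meristems, had the greatest fold of all families compared. Juvenile leaves had 248 RPM (1788 reads) and mature leaves 30.9 RPM (53 reads), 8.03-fold lower (6.11 to 10.8). This interval overlaps those of miR157, miR156 and miR390, so the place of miR171 among these families is not settled by the reads. miR159 was 1.20-fold lower in RPM (1.19 to 1.21) but 0.15 higher on the log2 scale with the median family at 0 and 0.18 higher per listed miRNA read. miR169 of this list is not among the entries.

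The families of sulphate and phosphate supply were low in both libraries. miR399, which acts on the transcript of PHO2, an enzyme that restrains phosphate uptake, had 8.87 RPM (64 reads) in juvenile and 25.0 RPM (43 reads) in mature leaves. It was 2.82-fold higher (1.87 to 4.22), and it entered the comparison only through its mature value, so it had to be higher there. miR395, which acts on ATP sulphurylase and sulphate transporter transcripts, had 111 and 125 RPM, a difference within counting error (1.12-fold, 0.958 to 1.30). The ratio of miR399 to miR395 went from 0.0797 to 0.201. miR827 is not among the entries.

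In the copper group, miR398, which acts on transcripts of copper/zinc superoxide dismutases, had 51.0 RPM (368 reads) in juvenile and 108 RPM (186 reads) in mature leaves. It was 2.12-fold higher (1.77 to 2.54). miR408, which acts on transcripts of copper proteins of the plantacyanin and laccase type, had 12.5 RPM (90 reads) and 11.6 RPM (20 reads). That difference lay within counting error (1.07-fold, 0.654 to 1.84) and changes sign under each other scaling. The ratio of miR398 to miR408 was 4.09 and 9.30, 2.27-fold higher in mature leaves (1.36 to 3.81 by the normal approximation). The copper families thus did not move together. miR397 and miR857 are not among the entries.

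miR162 and miR168 act on the small RNA pathway itself, the former on the transcript of a Dicer-like enzyme and the latter on that of an Argonaute. miR162 had 2290 and 1457 RPM and was 1.57-fold lower in mature RPM (1.51 to 1.64), but 0.05 higher on the log2 scale when listed reads without miR159 were the total. miR168, listed here by its 3p arm alone, had 208 RPM (1501 reads) in juvenile and 363 RPM (624 reads) in mature leaves. This arm was 1.75-fold higher (1.59 to 1.92). Whether the 3p arm acts on the Argonaute transcript was not tested. The other arm of miR168 is not among the entries, so its level and its difference with age are not known here. The ratio of miR162 to miR168 3p went from 11.0 to 4.01, 2.74-fold lower in mature leaves. miR403 and the disease resistance families miR472 and miR482 are not among the entries.

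Single sequences were compared where they reached 10 RPM in 1 of the libraries, which 34 did. Of these, 2 were at least 2-fold higher in mature leaves (5.88%) and 11 at least 2-fold lower (32.4%), with a median log2 ratio of −0.36. The 11 were ath-miR156a-5p, osa-miR156f-3p, ath-miR157a-5p, ath-miR157d, ath-miR166a-3p, osa-miR166g-3p, ath-miR171b-3p, osa-miR171c-3p, ath-miR390a-5p, ath-miR394b-5p and ath-miR396b-5p. Those higher were osa-miR398b and osa-miR399j. The counts use the log2 ratio after adding 1 RPM, which leaves out osa-miR399i, 2.10-fold higher on plain RPM.

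**Figure D3:**
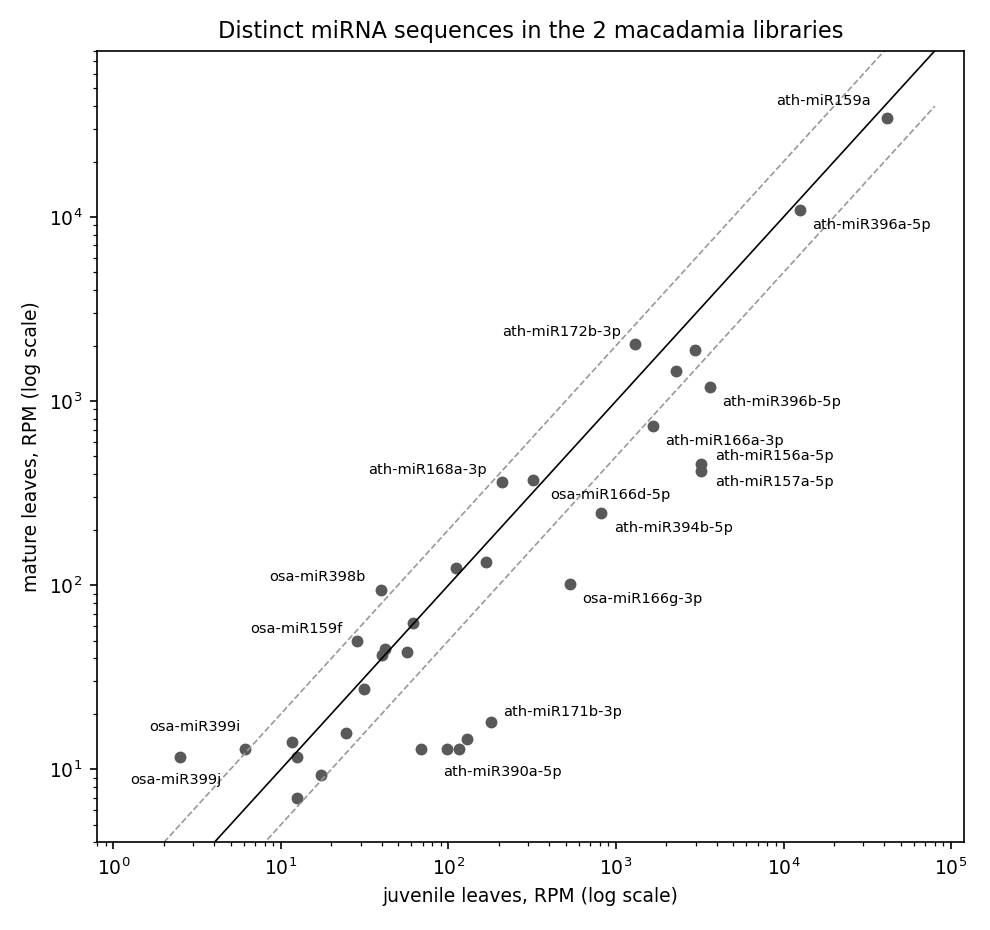
Each point is a distinct sequence of at least 10 RPM in 1 macadamia library, with juvenile RPM on the horizontal and mature RPM on the vertical log axis; the solid line marks equal levels and the dashed lines 2-fold. Of the 34 points, 11 lie at least 2-fold lower in mature leaves and 2 at least 2-fold higher after 1 RPM is added to each value.

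The make-up of miR396 differed between the ages. ath-miR396a-5p (3 entries) had 12487 and 10848 RPM in juvenile and mature leaves, which is 1.15-fold lower (1.13 to 1.17). ath-miR396b-5p (2 entries) had 3626 and 1186 RPM, which is 3.06-fold lower (2.92 to 3.20). The share of ath-miR396b-5p in all miR396 reads went from 22.4% (22.2 to 22.7) to 9.82% (9.42 to 10.2), and that of ath-miR396a-5p from 77.3% to 89.8%. The 2 leading sequences of this family thus differed in how far they were apart between the ages. No scaling of the libraries alters this comparison. Another, osa-miR396a-3p from the other arm, had 40.2 and 41.9 RPM, a difference within counting error (1.04-fold, 0.794 to 1.35). Both other species also had a lower share of ath-miR396b-5p in mature leaves, with 40.8% and 31.7% in avocado and 77.6% and 16.8% in mango.

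The make-up of miR166 differed as well. ath-miR166a-3p (13 entries) had 1661 and 732 RPM, 2.27-fold lower in mature leaves (2.14 to 2.41). osa-miR166g-3p (2 entries) had 532 and 101 RPM, 5.25-fold lower (4.51 to 6.15). osa-miR166d-5p, from the other arm, had 321 and 372 RPM, 1.16-fold higher (1.06 to 1.27). The most abundant sequence thus had 65.8% of juvenile and 60.6% of mature miR166 reads, while osa-miR166g-3p had 21.1% and 8.39% and osa-miR166d-5p had 12.7% and 30.8%. In avocado osa-miR166d-5p held 8.31% of miR166 reads in juvenile and 10.5% in mature leaves, and in mango 18.7% and 10.3%. osa-miR166g-3p held 30.5% and 24.4% in avocado and only 0.136% and 0.168% in mango.

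Both sequences of miR171 were lower. ath-miR171b-3p (2 entries) had 179 RPM (1290 reads) in juvenile and 18.0 RPM (31 reads) in mature leaves, 9.91-fold lower (6.94 to 14.6). The other, osa-miR171c-3p (5 entries) had 69.0 RPM (498 reads) and 12.8 RPM (22 reads), 5.39-fold lower (3.52 to 8.68). These intervals overlap. The share of ath-miR171b-3p went from 72.1% (70.0 to 74.2) to 58.5% (44.1 to 71.9), which also overlap.

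The sequences of miR156 and miR157 that reached 10 RPM differed by similar folds. ath-miR156a-5p, which stands for 16 entries of both plants, held 96.1% of miR156 reads in juvenile leaves and 96.8% in mature leaves, and was 7.03-fold lower (6.54 to 7.56). osa-miR156f-3p, from the other arm, had 128 and 14.6 RPM (926 and 25 reads), 8.82-fold lower (5.93 to 13.7). ath-miR157a-5p had 3215 and 414 RPM, 7.76-fold lower (7.20 to 8.37), and ath-miR157d had 115 and 12.8 RPM, 9.01-fold lower (5.91 to 14.5). Their 4 intervals overlap. The low members ath-miR156h and osa-miR156k had 5 and 14 juvenile reads and 0 and 1 mature reads. In miR172, ath-miR172b-3p held nearly all reads (9395 and 3494) and was 1.56-fold higher in mature leaves, and ath-miR172e-3p had 14 and 1 reads.

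miR159 was nearly a single sequence. ath-miR159a held 299855 juvenile and 59311 mature reads, 99.5% of the family at both ages. ath-miR159b-3p had 168 and 133 RPM, lower by 1.26-fold (1.10 to 1.46), close to the family. osa-miR159f went against it on the RPM scale, with 28.5 RPM (206 reads) in juvenile and 49.5 RPM (85 reads) in mature leaves, 1.73-fold higher (1.33 to 2.24). It was the only 1 of the 34 sequences that differed by at least 1.5-fold in the direction opposite to its family in RPM. With the median family at 0, both it (log2 ratio 1.19) and miR159 (0.15) were higher in mature leaves. osa-miR159a.1 had 12.5 and 6.99 RPM on 90 and 12 reads, and ath-miR159c had 1 juvenile read.

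The low families had little room for such comparisons. osa-miR398b held 77.2% (72.5 to 81.36) of juvenile and 87.1% (81.41 to 91.6) of mature miR398 reads, with 39.4 and 94.3 RPM, 2.40-fold higher (1.96 to 2.92). ath-miR398a-3p had 11.6 and 14.0 RPM, a difference within counting error (1.20-fold, 0.729 to 1.91), so the family's difference came mainly from osa-miR398b. In miR399, osa-miR399i had 6.10 and 12.8 RPM (44 and 22 reads) and osa-miR399j had 2.49 and 11.6 RPM (18 and 20 reads), 2.10-fold (1.20 to 3.58) and 4.67-fold (2.34 to 9.36) higher. Their intervals overlap, and both reached 10 RPM only in mature leaves. In miR167, osa-miR167d-5p had 61.7 and 62.3 RPM and ath-miR167a-5p 56.3 and 43.1 RPM. Their shares of the family overlapped in juvenile leaves (52.3% and 47.7%) and were 59.1% (51.6 to 66.4) and 40.9% (33.6 to 48.4) in mature leaves. In miR393, osa-miR393a had 24.4 and 15.7 RPM and ath-miR393a-5p 17.3 and 9.31 RPM. osa-miR164d had 31.2 and 27.4 RPM beside the far more abundant ath-miR164b-5p, which held 98.9% and 98.6% of miR164. The 16 sequences that were seen but stayed under 10 RPM at both ages had 1 to 70 juvenile reads and 0 to 6 mature reads.

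**Figure D4:**
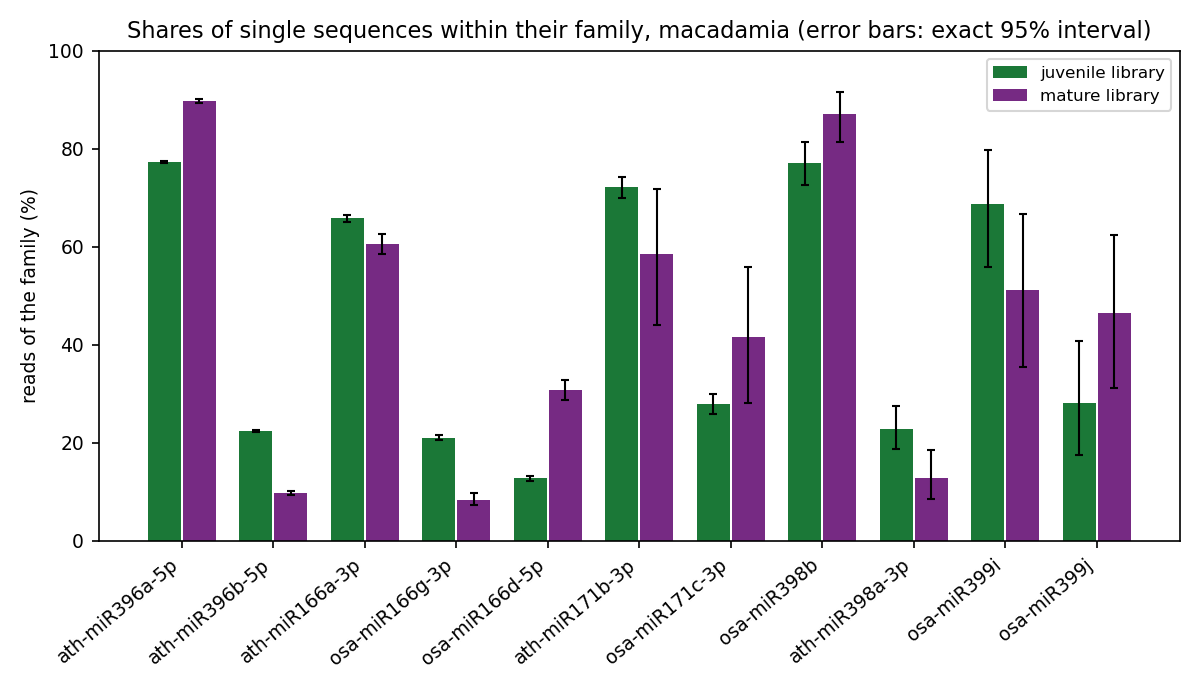
Percent of a family's reads held by single sequences of miR396, miR166, miR171, miR398 and miR399 in the juvenile and the mature macadamia library (bars from 0, error bars are exact 95% intervals). Among the sequences shown, the intervals are apart for both of miR396, all 3 of miR166 and, barely, both of miR398. The share of osa-miR166d-5p goes from 12.7% in juvenile to 30.8% in mature leaves.

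Reads of both arms were present for 6 families. In miR156, miR390 and miR396 the 5p arm led, and in miR160, miR162 and miR166 the 3p arm led. For miR160 the 5p arm is the rice entry osa-miR160f-5p alone, so the lead of 3p holds between the listed entries only. The share of the lesser arm was higher in mature leaves in 4 of the 6, but the intervals overlapped in 5. The exception was miR166, whose 5p arm held 12.8% (12.3 to 13.3) of juvenile and 30.9% (28.9 to 32.9) of mature reads. There the 3p arm was 2.63-fold lower (2.49 to 2.78), while the 5p arm was 1.15-fold higher (1.06 to 1.26). The lesser arm of miR156 held 3.85% and 3.09%, that of miR160 7.34% and 7.23%, and that of miR396 0.249% and 0.347%. In miR390 it held 8.97% and 12% on 70 and 3 reads, and in miR162 only 4 and 3 reads were found. miR160 was led by its 5p arm in the other species, with 24.8 and 20.8 RPM in avocado and 387 and 3889 RPM in mango, where the 3p arm had at most 0.664 RPM.

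Levels of 4 families, on the arm that leads in macadamia, were at least 10-fold from those in each of the other 4 libraries at both ages. miR162 had 2290 and 1457 RPM in macadamia and at most 11.3 RPM elsewhere. miR160 3p had 42.0 and 44.8 RPM against at most 0.664 RPM. This holds for that arm alone: miR160 5p, listed by osa-miR160f-5p alone, had 3.33 and 3.49 RPM in macadamia, less than in each other library. Over both arms as listed, macadamia lay between avocado and mango. miR399 had 8.87 and 25.0 RPM against at most 0.133 RPM. miR167 was lower in macadamia, with 118 and 105 RPM against 5052 to 15327 RPM elsewhere. A difference in letters from the Arabidopsis and rice entries would also change such a value, and this was not tested. These families were picked by these same values, so the differences are a description and were not tested.

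**Figure D5:**
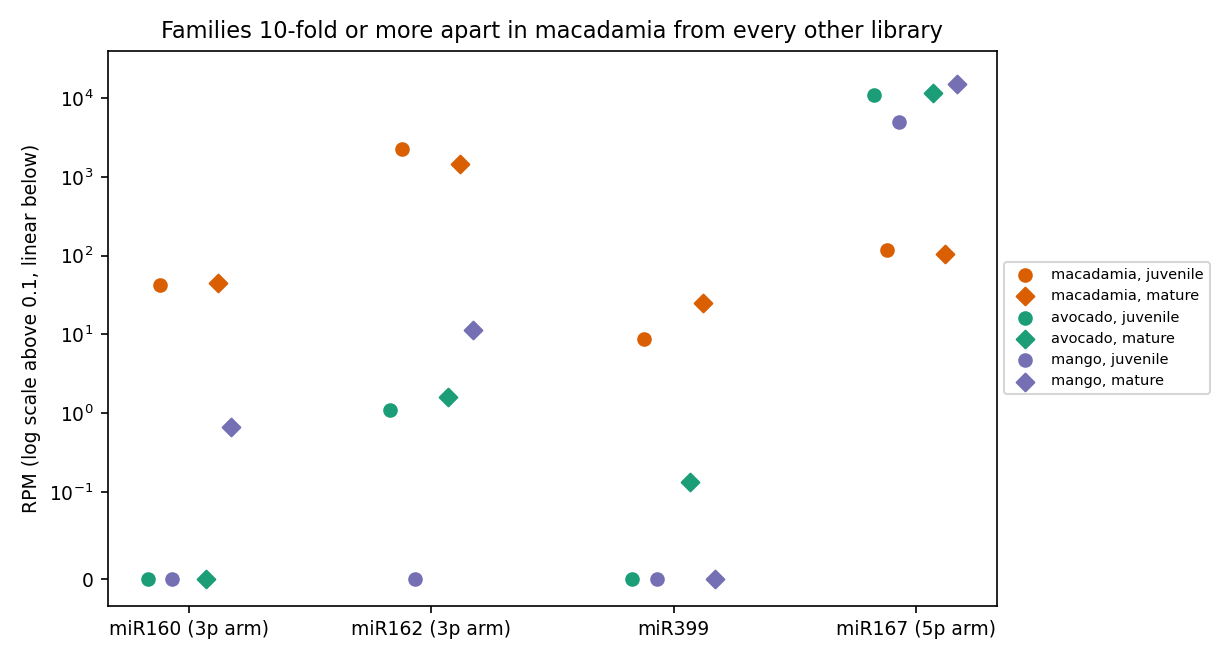
RPM, on the arm that leads in macadamia, of the 4 families whose macadamia values (orange) lie at least 10-fold from all avocado (green) and mango (blue) values, circles for juvenile and diamonds for mature leaves, on an axis that is logarithmic above 0.1 RPM and linear below. miR160 3p, miR162 and miR399 lie above the other species and miR167 below.

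Direction of the age difference was opposite to another species by at least 2-fold on both sides for 3 families. miR166 was lower in mature leaves of macadamia (log2 ratio −1.40) and higher in mango, from 1574 to 4976 RPM (1.66). miR171 was lower in macadamia (−2.97) and higher in avocado, from 1159 to 2319 RPM (1.00). miR398 was higher in macadamia (1.07) and lower in avocado, from 48.6 to 4.79 RPM (−3.10). With the median family of each species at 0 the signs were still opposite, at −0.98 and 2.21 for miR166, −2.54 and 2.42 for miR171, and 1.49 and −1.68 for miR398. Without that step the remaining species had the sign of macadamia in each case, with −1.39 for miR166 in avocado, −2.37 for miR171 in mango and 0.67 for miR398 in mango. With the median family at 0, miR166 in avocado was near no change (0.03) and no longer had the sign of macadamia. miR171 and miR398 in mango kept it, at −1.81 and 1.23.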

How the data were processed

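Small RNA libraries were made with a NEXTflex kit from pooled leaves, cut from a gel and sequenced as single reads. The authors trimmed adapters (Trim Galore), took out ribosomal reads (BBduk) and used SCRAM to count reads that matched miRBase miRNAs of Arabidopsis and rice. Tool versions were not given in the sources used here. Deposited values are RPM of the reads of 20 to 24 nt, with 3 decimals, so each is a share of its library, and sequences unlike those of Arabidopsis or rice may be missing or low. The table's second heading line was dropped.

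Depth was taken as the smallest read number for which all values of a library are whole reads within rounding. A family's level used the arm with the larger macadamia total. Ratios used a pseudocount of 1 RPM, a filter of 10 RPM in 1 library and a limit of 2-fold. With 1 library per age, no test was made. Every family was named, and sequences with at least 1% of their family and 10 RPM, or opposite to their family by 1.5-fold. Families, lists and rules were chosen with earlier results of these data known. The primers were read by a script from the study's supplementary text. Alternatives were other scalings, pseudocounts, filters, limits and sums of arms or entries. Python 3.11.15, numpy 2.4.6, pandas 2.3.3, scipy 1.17.1 and matplotlib 3.10.9 were used, and scripts were tested on simulated data.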

Additional observations from a re-analysis of the deposited data

Results flagged for a closer look

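For 3 families the macadamia log2 ratio (mature over juvenile) was opposite in sign to that of another species, by at least 2-fold in each. The macadamia ratio of miR166 minus that of mango was −3.06. The macadamia ratio of miR171 minus that of avocado was −3.97. The macadamia ratio of miR398 minus that of avocado was 4.17. On the RPM scale the remaining species had the sign of macadamia for all 3 families. With the median family of each species at 0 this no longer held for miR166, at 0.03 in avocado. Each species has 1 library per age, so these differences were not tested.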

How the results depend on the processing

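The 8 families past 2-fold kept their sign in 72 of 72 values over 9 settings and stayed past 2-fold in 67. The 5 exceptions were miR166 at −0.98, −0.95 and −0.69 under the other scalings, miR399 at 0.96 from its most abundant sequence alone and miR398 at 0.95 with every entry summed. Many of the 72 signs were fixed in advance. A pseudocount cannot reverse a sign, and the other scalings only raise these ratios, so miR398 and miR399 could not change sign there. miR399 also passed the filter only through its mature value. The count of 2 families at least 2-fold higher became 4 with the median family at 0, 4 per listed miRNA read, 4 without miR159 in that total and 4 at a limit of 1.5-fold. It became 1 for the most abundant sequence alone, 1 with every entry summed, 1 at a filter of 50 RPM and 0 at a limit of 4-fold. The count of 6 lower families ranged from 4 at 4-fold to 9 at 1.5-fold. On 1 arm the listed miRNAs held 7.50% of juvenile and 5.50% of mature reads, and 7.55% and 5.54% on both arms. Families that did not keep their sign numbered 4 with the median family at 0, 4 per listed read, 5 without miR159 and 1 for the most abundant sequence alone. The first of these counts includes miR396, which as the median family was itself set to 0. Choosing the arm over all 6 libraries and pooling miR156 with miR157 were added after seeing the data, and left 2 families higher, while the pooling gave 5 lower families. No paired analysis was possible because each age has 1 library. Leaving out a library was not possible for the same reason. Low families rest on few reads, with 20 mature reads for miR408 and 22 for miR390.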
